A study of Mus musculus with 4 samples.

Results

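The genes described here encode fibrinogen and the central enzymes and inhibitors of blood clotting and clot removal. They are a fixed list of 10 genes, Fga, Fgb, Fgg, F2, F5, F7, F10, Proc, Serpinc1 and Plg, chosen by name from 21951 protein-coding genes of the GENCODE vM21 annotation (GRCm38). Their transcription start regions were mapped by PRO-seq, which sequences the nascent RNA of engaged RNA polymerases after a run-on reaction, in liver and yolk sac of E14.5 mouse embryos. Each tissue had 2 libraries, and each library came from tissue pooled from 6 embryos. All embryos came from C57BL/6J mothers and from fathers of mixed C57BL/6J and CAST/EiJ background that carried only CAST/EiJ alleles at the imprinted Dlk1/Gtl2 locus, so both tissues shared this genotype. Pooled whole tissue was used, so that fewer cells of a type and less transcription per cell cannot be told apart.

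Clotting ends when thrombin cuts fibrinogen into fibrin. Factor VII with tissue factor activates factor X, and factor X with its cofactor factor V turns prothrombin into thrombin. Antithrombin and the protein C pathway restrain these enzymes, and plasmin dissolves the fibrin. Most of these proteins are made by hepatocytes, and the visceral endoderm of the yolk sac is also known to secrete plasma proteins before birth.

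The data are 1 list per library of peaks from dREG, a classifier of transcription start regions. The liver lists held 24863 and 24333 peaks and the yolk sac lists 50525 and 43055, and the number of reads behind them is unknown. A gene was called where a peak overlapped 500 bp either side of any annotated start. The score of a peak is given as its percentile within the list, the share of peaks of the same library that scored lower, because scores were not scaled between libraries. With 2 libraries per tissue the exact permutation test cannot go below p = 0.333, so each difference is set against the gap between replicates. Marker genes were read to see whether the lists fit their labels. Each liver library had a promoter peak at 7 of 7 erythroid markers in the annotation, and each yolk sac library at 3. Of 10 visceral endoderm markers, 8 and 5 were called in the liver libraries and 10 and 10 in the yolk sac libraries. Hepatocyte markers were called at 9 and 8 of 9 in liver and at 8 each in yolk sac. Of these, Cps1, a urea cycle enzyme gene, was called in liver alone. Apob, Ttr and Afp stood in both the visceral endoderm and the hepatocyte list, and Afp had no promoter peak in liver replicate 2. Macrophage markers were called at 2 and 1 of 6 in liver and at 6 and 5 in yolk sac, and mesenchymal markers at 4 and 7 of 8 in liver and at 8 each in yolk sac. The part of these cell types in the differences that follow was not tested.

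Promoter sequences are shown for 6 of the genes: Fgb and Fgg of the fibrinogen locus, which held matches to the motifs searched, F5 and F7, which were called in liver alone, and F2 and F10, whose ranks differed most in favour of yolk sac. Each is the 250 bases before the RefSeq start (GRCm38.p6), 5′ to 3′ on the strand of the gene. Capitals mark matches, on either strand, to the motifs named after the sequences.
Fgb, chr3:83049864-83050113, minus strand: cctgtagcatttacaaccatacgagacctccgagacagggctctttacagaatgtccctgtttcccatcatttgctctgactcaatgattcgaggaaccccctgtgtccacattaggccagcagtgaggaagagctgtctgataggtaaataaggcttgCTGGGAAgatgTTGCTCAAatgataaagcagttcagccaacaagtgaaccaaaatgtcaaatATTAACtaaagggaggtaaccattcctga
Fgg, chr3:83007474-83007723, plus strand: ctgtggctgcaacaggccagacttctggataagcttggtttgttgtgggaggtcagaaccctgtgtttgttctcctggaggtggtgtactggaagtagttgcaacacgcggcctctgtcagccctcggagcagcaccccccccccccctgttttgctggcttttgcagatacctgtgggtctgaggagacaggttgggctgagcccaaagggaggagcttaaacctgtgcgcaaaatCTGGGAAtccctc
F5, chr1:164151585-164151834, plus strand: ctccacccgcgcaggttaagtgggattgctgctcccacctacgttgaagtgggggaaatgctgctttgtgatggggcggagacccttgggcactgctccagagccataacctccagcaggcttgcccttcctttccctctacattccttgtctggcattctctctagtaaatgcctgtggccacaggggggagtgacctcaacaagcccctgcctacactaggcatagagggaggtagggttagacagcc
F7, chr8:13025784-13026033, plus strand: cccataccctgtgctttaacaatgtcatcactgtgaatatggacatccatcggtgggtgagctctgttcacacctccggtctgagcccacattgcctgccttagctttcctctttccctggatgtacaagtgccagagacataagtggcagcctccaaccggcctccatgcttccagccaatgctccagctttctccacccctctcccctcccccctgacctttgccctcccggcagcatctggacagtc
F2, chr2:91636458-91636707, minus strand: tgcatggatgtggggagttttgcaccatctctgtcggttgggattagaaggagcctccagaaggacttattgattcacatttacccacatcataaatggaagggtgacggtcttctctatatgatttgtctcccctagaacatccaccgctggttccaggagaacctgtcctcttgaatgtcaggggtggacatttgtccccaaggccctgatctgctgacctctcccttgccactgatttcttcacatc
F10, chr8:13037058-13037307, plus strand: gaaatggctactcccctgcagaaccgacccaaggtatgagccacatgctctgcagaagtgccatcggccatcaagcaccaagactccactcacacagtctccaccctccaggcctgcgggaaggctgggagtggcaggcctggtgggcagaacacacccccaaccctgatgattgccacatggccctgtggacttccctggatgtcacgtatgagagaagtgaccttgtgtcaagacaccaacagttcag

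In these windows 6 motifs were searched on both strands. For hepatic factors these were GTTAAT, a half-site of HNF1, then CAAAGT, a half-site of HNF4, and the C/EBP motif TTGCNNAA. The interleukin-6 response element of acute-phase genes was searched as CTGGGAA. The TATA box was searched as TATAAA and the motif of GATA factors as AGATAA. The RefSeq table held 8 of the 10 genes. Fgb carried 3 of the motifs: CTGGGAA from 91 to 85 bases before the start, TTGCNNAA from 80 to 73, and GTTAAT, on the opposite strand, from 29 to 24. In Fgg, CTGGGAA lay from 13 to 7 bases before the start. Fga held TTGCNNAA from 135 to 128 bases before the start and GTTAAT from 43 to 38, both on the opposite strand. The RefSeq start of Fga lies 77 bp downstream of the 5′ end of its GENCODE record, so this GTTAAT lies inside that record. At F2 the RefSeq start lies 43 bp upstream of the GENCODE 5′ end. The other 5 genes in the table held none of the 6 motifs in this window. Over all 32851 promoters of the table, CTGGGAA was found in 9.10%, TTGCNNAA in 9.56%, GTTAAT in 6.43%, TATAAA in 12.4%, CAAAGT in 12.6% and AGATAA in 9.99%. No match overlapped another within a gene. All 8 windows were poor in CpG, with an observed over expected ratio from 0.132 in Fga to 0.239 in Fgb, against a median of 0.374 over all promoters. Their GC content was near that of the table, with a median of 52.8% against 52.4%.

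Promoter peaks were found at 9 and 8 of the 10 genes in the liver libraries and at 8 and 8 in the yolk sac libraries. Mean counts of 8.5 ± 0.707 for liver and 8 ± 0 for yolk sac (SD, n = 2) differed by less than the spread of the liver libraries (exact permutation test, p = 1). Over all 21951 protein-coding genes the liver libraries called 12306 and 12706 and the yolk sac libraries 13999 and 13702. The totals hid opposite calls at single genes. Fga, Fgg, F2, F10, Proc and Plg were called in all 4 libraries, a pattern of 53.8% of protein-coding genes. F5 and F7 had a promoter peak in the liver pair alone, a pattern of 1.01% of protein-coding genes. When all lists were shortened to the 24333 peaks of the shortest, F5, F7 and also Plg had this pattern, as did 3.01% of protein-coding genes. Fgb had one in the yolk sac pair alone, which held for 5.25% of protein-coding genes. Serpinc1 was called in 3 libraries.

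**Figure D1:**
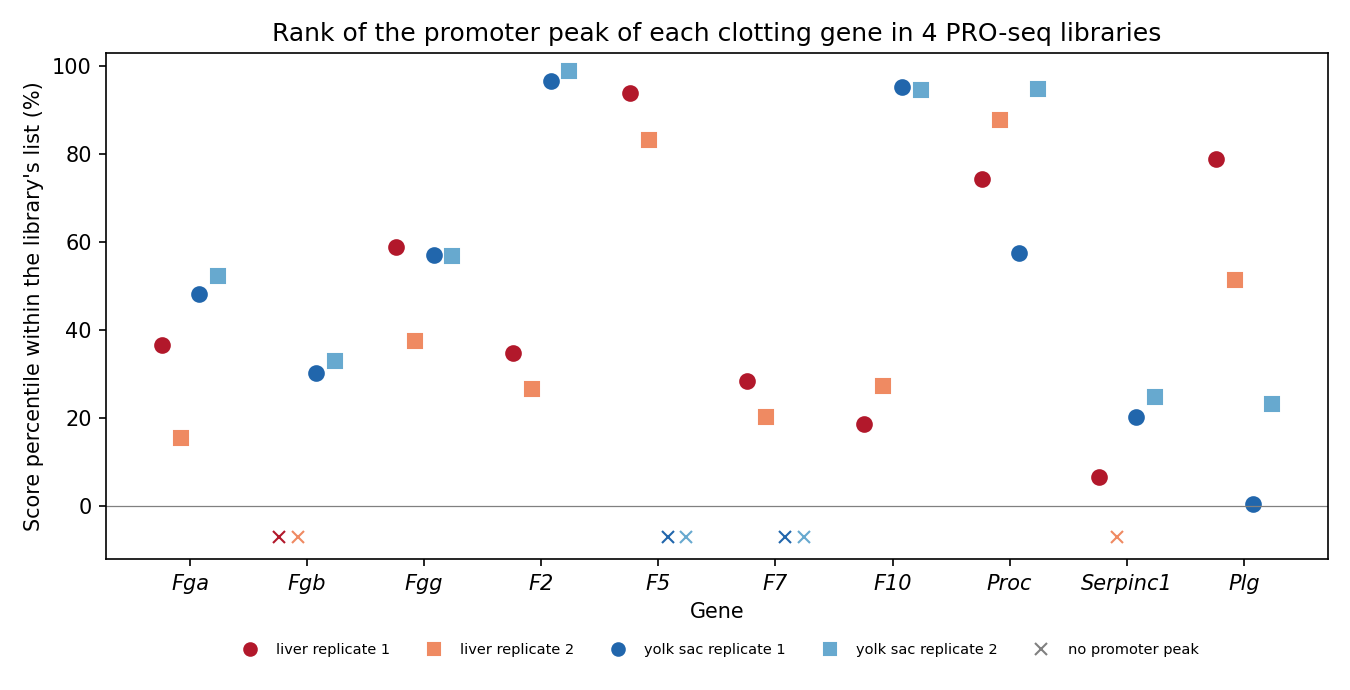
Score percentile (vertical axis, percent) of the highest-scoring promoter peak of each gene (horizontal axis), with 1 point per library, red for liver and blue for yolk sac, circles for replicate 1 and squares for replicate 2; crosses mark libraries without a promoter peak. The yolk sac points of F2 and F10 lie above 94 and their liver points below 35, while F5 and F7 have points in liver alone and Fgb in yolk sac alone.

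Fibrinogen is a hexamer of paired Aα, Bβ and γ chains, encoded by Fga, Fgb and Fgg side by side on chromosome 3. The 3 genes were called differently. Fga (83026076 to 83033627, plus strand) ranked at the 36.8 and 15.6 percentiles in liver and at 48.3 and 52.4 in yolk sac. Both yolk sac values lay above both liver values, with means of 50.3 ± 2.92 and 26.2 ± 15.0 (SD, n = 2). The Fga peak was also wider in yolk sac, at 1702 and 1702 bp against 952 and 652 bp in liver, with no overlap. The difference was 2.16-fold between geometric means, the measure of all width ratios given here. The higher rank of Fga was not kept with these shortened lists: the peak was then absent from yolk sac replicate 1 and ranked at 15.8 in replicate 2, against 35.4 and 15.6 in liver.

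Fgg (83007724 to 83015049, plus strand) ranked at 58.8 and 37.6 in liver and at 57.1 and 56.8 in yolk sac, and these values overlapped. Except in liver replicate 2, its peak was the broadest at any start of the 10 genes. It measured 3952 and 3952 bp in yolk sac and 3552 bp in liver replicate 1, and in these 3 libraries it reached between 3128 and 3328 bp into the gene. In liver replicate 2 the same stretch was called as separate peaks of 1202 and 1552 bp. The geometric mean width at the start was thus 1.91-fold larger in yolk sac. Without liver replicate 2 the log2 ratio was 0.15 in place of 0.94. The start of a long noncoding RNA gene on the opposite strand, Gm30097, lies under the same peak, and a dREG peak does not separate the strands.

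Fgb (83040141 to 83049863, minus strand) had peaks of 1452 and 1152 bp in the yolk sac libraries, which ranked at 30.3 and 33.0. They covered the start and the first 1012 and 662 bp of the gene. In both liver libraries the peak nearest to the Fgb start was 5238 bp away, at the promoter of the neighbouring splicing factor gene Plrg1, which was called in all 4 libraries. The call at Fgb thus separated the tissues at windows of 250, 500 and 1000 bp. It rested on peaks in the lower part of the yolk sac lists, and no library called Fgb in the higher-scoring 50% of its list or among the top 24333 peaks.

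**Figure D2:**
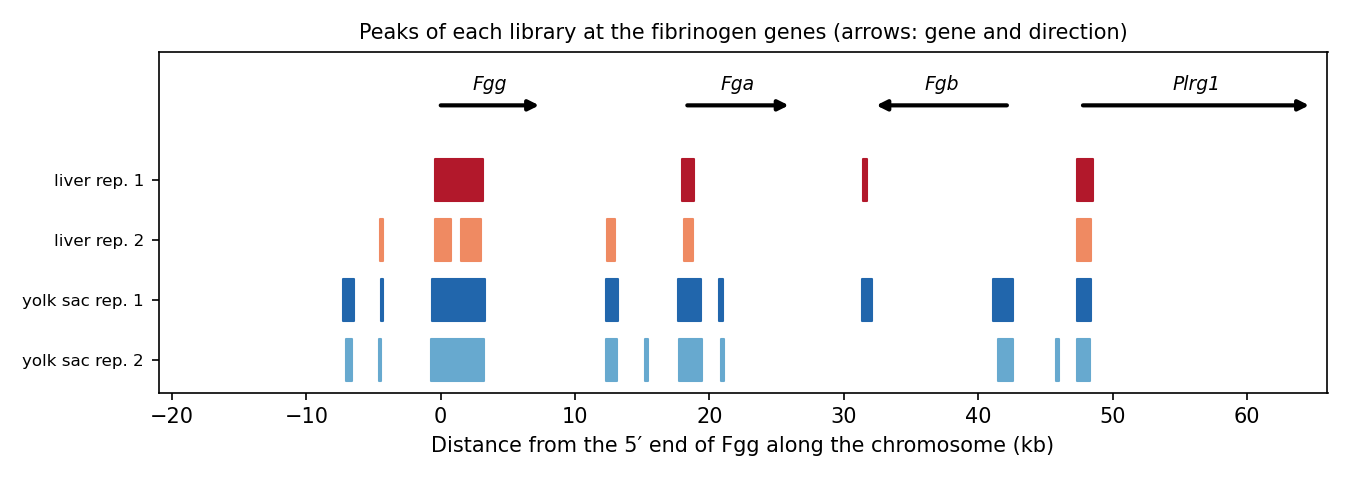
Peaks of each library (rows, bars drawn to scale) against the distance from the 5′ end of Fgg along the chromosome (horizontal axis, kb), with arrows for the genes and their direction. All 4 libraries have peaks at Fgg, Fga and Plrg1, and only the yolk sac rows have a peak at the right-hand end of Fgb, its start.

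Between and beside the fibrinogen genes, within 20 kb of any of the 3, the liver lists held 4 and 6 peaks and the yolk sac lists 9 and 10. Of these, 1 and 3 in liver and 5 and 6 in yolk sac were distal, away from every annotated start. The 3 of liver replicate 2 include the separate peak of 1552 bp in Fgg, a stretch that the other libraries called within the promoter peak. A region at 83020001 to 83020902, between Fgg and Fga and 5.6 kb upstream of Fga, was called in both yolk sac libraries (percentiles 55.7 and 53.3) and in liver replicate 2 (34.6). A region within an exon of Fga, at 83028401 to 83028802, and another 6.9 kb upstream of Fgg, at 83000451 to 83001252, were called in both yolk sac libraries alone. The former ranked low, at 11.7 and 7.07, and the latter at 79.6 and 25.7. Past the 3′ end of Fgb, the region at 83039051 to 83039852 was called in replicate 1 of each tissue only.

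Factor VII, the enzyme that starts the cascade, and factor X, its substrate, are encoded by adjacent genes on chromosome 8. The tissues differed in opposite directions at the pair. F7 (13026034 to 13035809, plus strand) had peaks of 602 and 352 bp in the liver libraries, at the 28.5 and 20.4 percentiles, and the second of these ended 82 bp short of the start. In both yolk sac libraries the nearest peak was 10917 bp from the F7 start, at F10. The liver call at F7 was kept among the top 24333 peaks and was lost in the higher-scoring 50% of each list.

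F10 (13037308 to 13056676, plus strand) ranked at 18.7 and 27.4 in liver and at 95.3 and 94.5 in yolk sac. The tissue means of 23.0 ± 6.14 and 94.9 ± 0.550 (SD, n = 2) differed by 71.9 percentage points, several times the gap between replicates of either tissue. The position differed as well. Both yolk sac peaks began 357 bp upstream of the 5′ end of the gene and covered it, while the liver peaks began 293 and 93 bp downstream of it, over the starts annotated at 13037587 or 13037838 or both. Liver widths were 302 and 1552 bp and yolk sac widths 1552 and 1352 bp, which overlapped. Proz, the gene of the vitamin K-dependent protein Z that follows F10, ranked at 15.5 and 31.5 in liver and at 77.2 and 75.4 in yolk sac. A distal region at the 3′ end of F10, at 13056351 to 13057852, was called in both yolk sac libraries (51.3 and 46.2) and in liver replicate 1 (16.3).

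F2 encodes prothrombin, the precursor of thrombin, on chromosome 2 (91625320 to 91636414, minus strand). Its promoter peak ranked at 34.7 and 26.6 in liver and at 96.6 and 98.8 in yolk sac, where it stood among the highest-scoring peaks of the lists. The means were 30.7 ± 5.72 and 97.7 ± 1.59 (SD, n = 2), a difference of 67 percentage points. Widths differed little by comparison, at 2252 and 2002 bp in liver and 2652 and 2502 bp in yolk sac, a 1.21-fold difference without overlap. A distal region 6.8 kb upstream of F2, at 91642951 to 91643402, was called in both yolk sac libraries alone (22.3 and 26.9). The nearby promoters of Zfp408 and Arhgap1 lay under 1 shared peak in each of the 4 libraries. It ranked at 40.3, 31.3, 40.2 and 42.7, so the gap at F2 was not shared by that peak. Ckap5, the gene on the other side of F2, ranked at 67.9 and 81.3 in liver. In yolk sac Ckap5 ranked at 87.6 and 89.8, higher without overlap.

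F5, the gene of the cofactor factor V, lies on chromosome 1 (164151838 to 164220277, plus strand). In liver its promoter peak ranked at 93.8 and 83.2, the highest of the 10 genes in replicate 1, with widths of 1302 and 1402 bp. Neither yolk sac library had a peak within 10713 bp of the F5 start. The liver call held at every window tested, in the higher-scoring 50% and among the top 24333 peaks. The peak also covered the start of the long noncoding RNA gene Gm16548 on the opposite strand, and the 2 cannot be separated in these lists.

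The body of F5 held peaks of both tissues. An intronic region 11.4 kb from the start, at 164162551 to 164163902, was called in all 4 libraries, at 10.5 and 17.2 in liver and at 41.8 and 81.5 in yolk sac. Further into the gene, 3 regions were called in both yolk sac libraries alone. They lay 59.3, 61.1 and 66.1 kb from the start, and the middle one ranked highest, at 69.7 and 59.0. A region 14.9 kb past the end of the gene, at 164234901 to 164235502, was called in both liver libraries alone and ranked low, at 7.73 and 9.89.

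**Figure D3:**
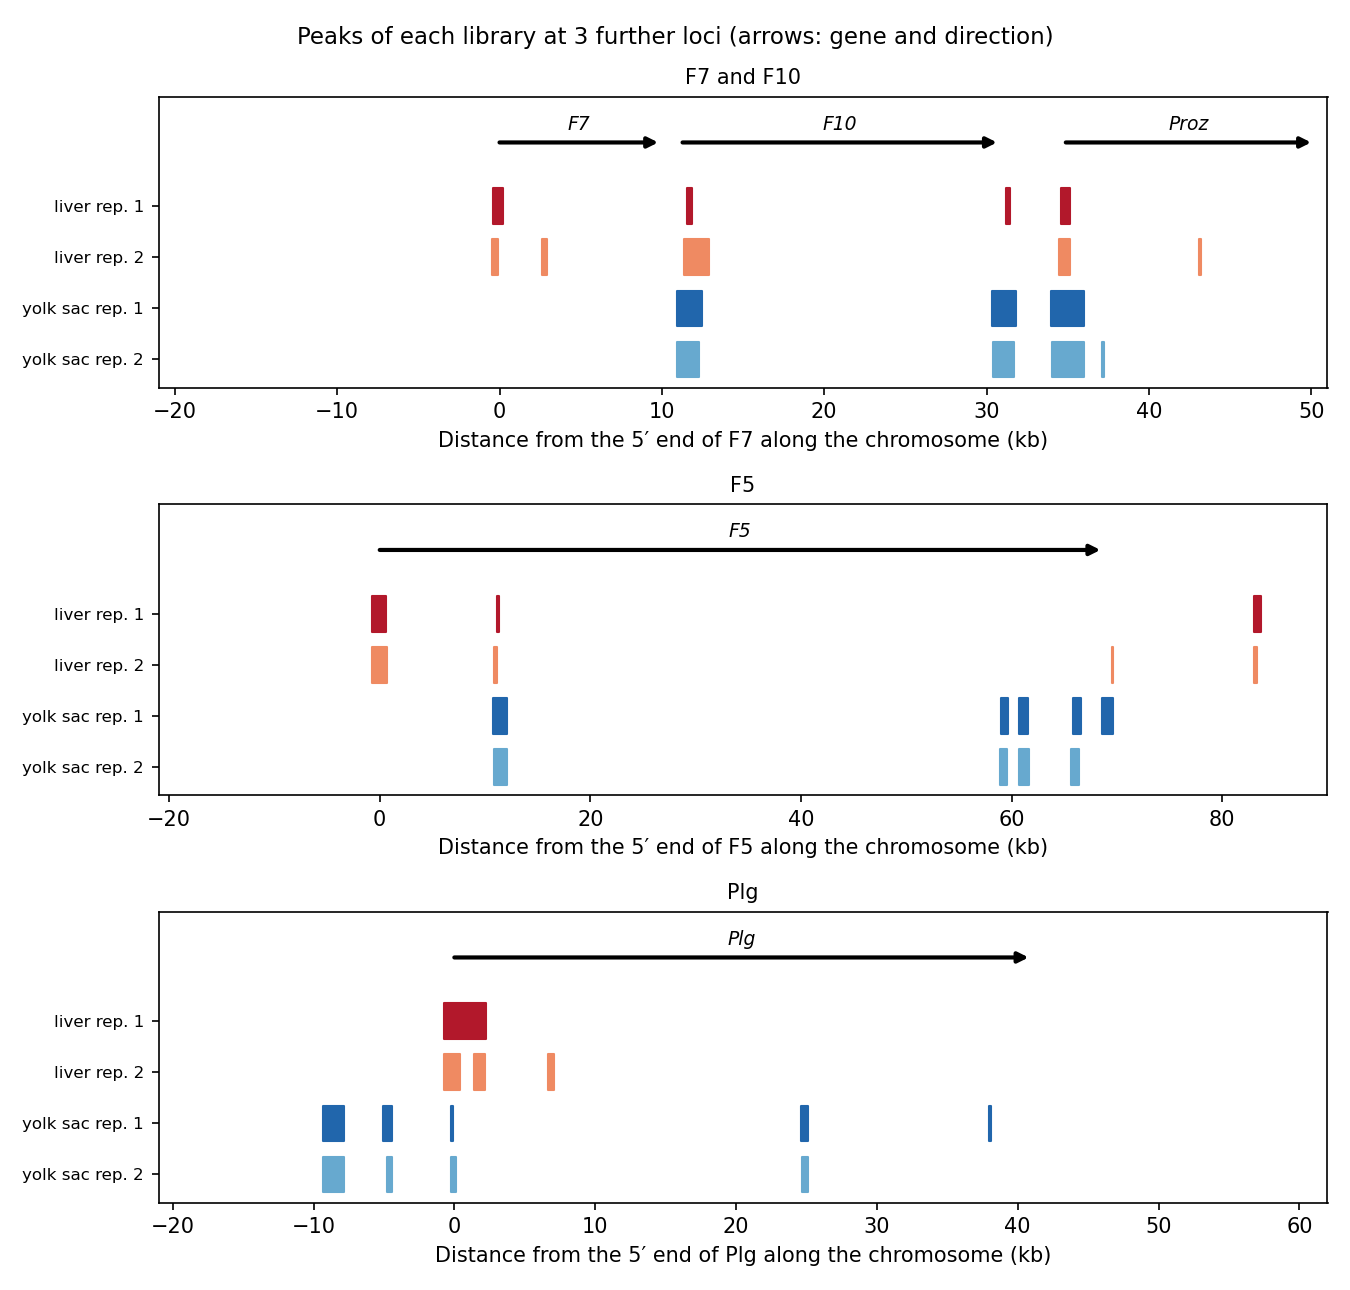
Peaks of each library (rows, bars drawn to scale) at F7 and F10, at F5 and at Plg, against the distance from the 5′ end of the first-named gene along the chromosome (horizontal axes, kb), with arrows for genes and direction. F7 and the start of F5 have peaks in the liver rows alone. The 3 bars near 60 kb of F5 and the bars upstream of Plg are in the yolk sac rows alone. Narrow yolk sac bars lie at the Plg start, or just before it in replicate 1.

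Plg encodes plasminogen, the precursor of the fibrin-dissolving enzyme plasmin, on chromosome 17 (12378608 to 12419385, plus strand). It was the gene called in all 4 libraries whose promoter rank was lower in yolk sac without overlap. The peak ranked at 78.9 and 51.5 in liver and at 0.628 and 23.2 in yolk sac, with means of 65.2 ± 19.4 and 11.9 ± 16.0 (SD, n = 2) and a difference of -53.3 percentage points. Widths were 2952 and 1152 bp in liver, where replicate 2 had a second peak of 752 bp in the same stretch, and 102 and 352 bp in yolk sac. The peak of yolk sac replicate 1 ended 106 bp short of the 5′ end of the gene and covered no annotated start. Neither yolk sac library kept the Plg peak in the higher-scoring 50% or among the top 24333 peaks, whereas both liver libraries did. Distal regions at this locus went the other way. The region 8.6 kb upstream of Plg, at 12369251 to 12370802, was called in both yolk sac libraries alone at 94.3 and 92.7. Others were called in both yolk sac libraries alone 4.7 kb upstream (42.8 and 25.9) and 24.8 kb into the gene (36.9 and 14.1).

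The 2 inhibitor genes had peaks at internal starts. Proc encodes protein C, a protease that inactivates factors V and VIII, on chromosome 18 (32123126 to 32139570, minus strand), with 6 annotated starts between 32135746 and 32139570. Its highest-scoring promoter peak ranked at 74.4 and 87.7 in liver and at 57.5 and 94.9 in yolk sac, values that overlapped. In yolk sac replicate 2 this was a peak at the innermost annotated start, while the other values are from peaks over the 5′ end. The peak over the 5′ end in that library ranked at 82.9, and with it the tissues overlapped as well. At the 5′ end of the gene, each liver library had 1 peak there (1152 and 852 bp) and another at the cluster of internal starts (902 and 952 bp). In each yolk sac library 1 peak of 2902 or 2702 bp spanned both positions. A further peak at the innermost annotated start, at 32135451 to 32136752, was called in both yolk sac libraries alone, at 38.6 and 94.9. A distal region 8.2 kb upstream of Proc was called in all 4 libraries and ranked at 94.4 and 91.9 in liver and at 63.7 and 84.5 in yolk sac. Another region, 13.9 kb upstream at 32152551 to 32154302, was called in both yolk sac libraries alone (70.1 and 58.9) and covered the start of the long noncoding RNA gene Gm26717. The start window of a processed pseudogene, AC126686.1, was touched by the Proc peak in replicate 1 of each tissue.

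Serpinc1 encodes antithrombin, the main plasma inhibitor of thrombin and factor X, on chromosome 1 (160978585 to 161005863, plus strand). At the 5′ end of the gene the only peak was in yolk sac replicate 2, with a width of 102 bp and a percentile of 6.80. The other calls were at internal starts of transcripts outside the basic annotation set. The region at 160987001 to 160987552, 8.7 kb into the gene, was called in liver replicate 1 (6.63), yolk sac replicate 1 (20.2) and yolk sac replicate 2 (24.9). Liver replicate 2 had no peak in the gene or within 20 kb of it, and the nearest lay 44.6 kb from a start. When starts were limited to the basic set, yolk sac replicate 2 was the single library to call Serpinc1.

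**Figure D4:**
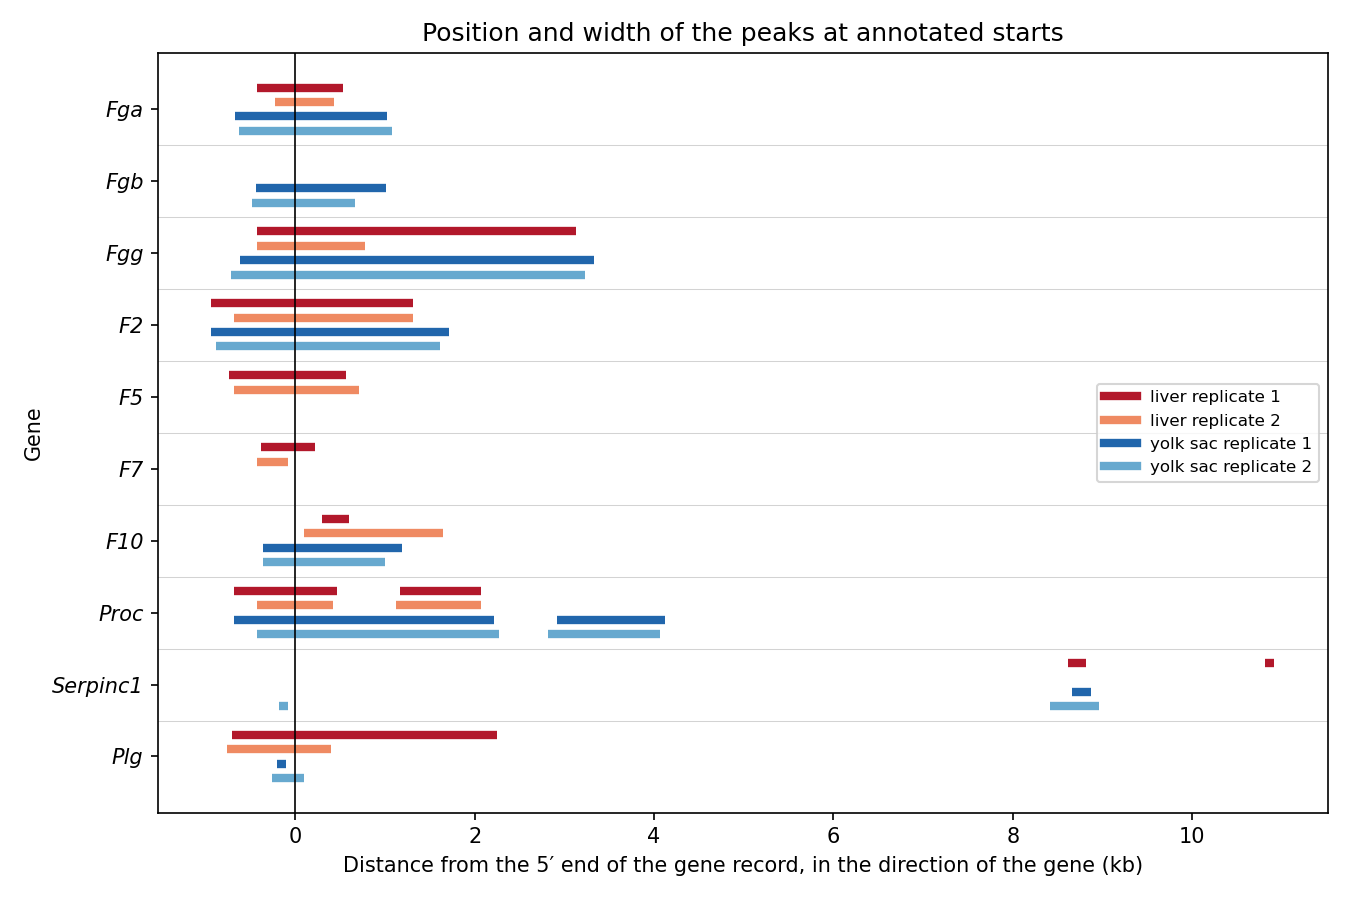
Position of every peak at an annotated start of the 10 genes (rows, with 1 line per library, red for liver and blue for yolk sac) relative to the 5′ end of the gene record in the direction of the gene (horizontal axis, kb; the vertical line is the 5′ end). Peaks at Fgg and F2 extend into the gene, those of F10 in liver start downstream of the 5′ end, and those of Serpinc1 lie mostly at internal starts.

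The ranks were set against all protein-coding genes. Of 11805 genes called in all 4 libraries, 34.4% had both yolk sac ranks above both liver ranks, and 22.1% had both below. Of the 6 clotting genes among them, Fga, F2 and F10 were higher (50%) and Plg was lower (16.7%), counts near this background for 6 genes. The sizes of the differences at F2, F10 and Plg were rarer. The median difference was 3.04 percentage points over all such genes and 16.5 over the 6. With percentiles taken among promoter peaks alone, these medians were 0.0901 and 7.39, and the difference at Fga was 12.7 in place of 24.2. A difference at least as high as that of F10 was found in 0.347% of the genes, one as high as that of F2 in 0.762%, and one as low as that of Plg in 0.178%. Per gene the exact permutation p was 0.333 for Fga, F2, F10 and Plg and 1 for Fgg and Proc, and the smallest value adjusted over the 11805 genes was 0.590 (Benjamini-Hochberg).

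**Figure D5:**
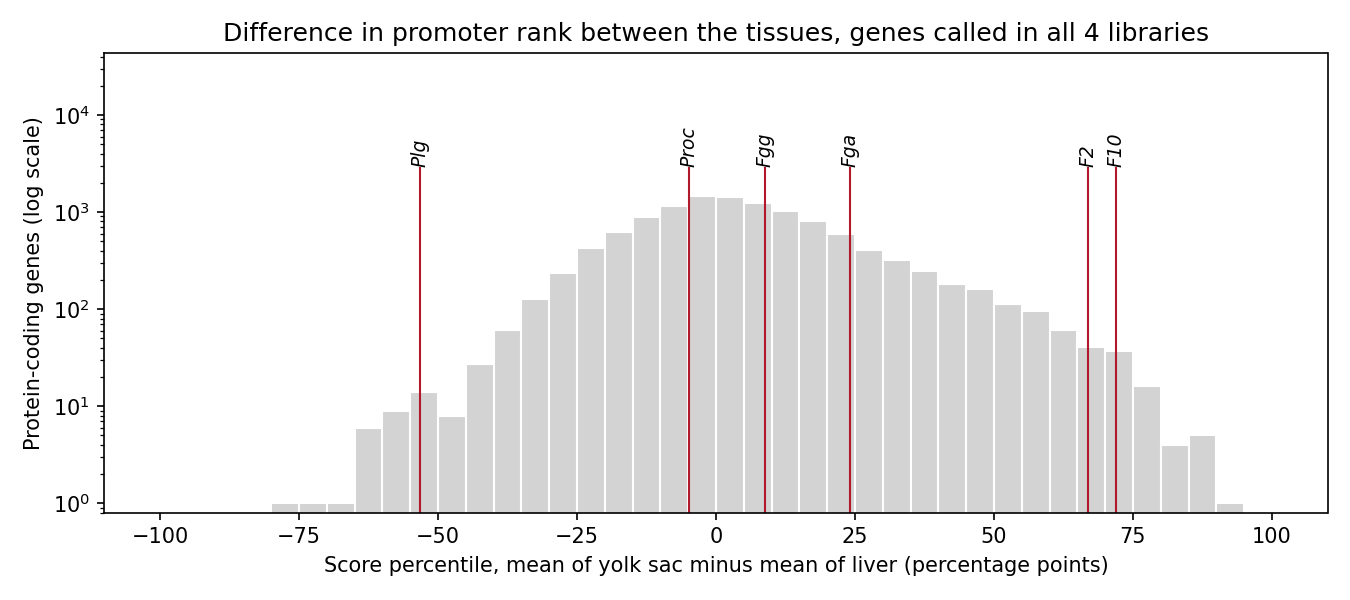
Histogram of the difference in promoter score percentile, mean of yolk sac minus mean of liver (horizontal axis, percentage points), over the 11805 protein-coding genes called in all 4 libraries (vertical axis, number of genes on a log scale), with a red line for each of the 6 clotting genes among them. F10 and F2 lie far to the right at 71.9 and 67, Plg far to the left at -53.3, and Proc and Fgg near the centre. Fga lies to the right of the centre at 24.2, above the upper quartile of all genes at 15.6.

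The yolk sac lists are longer than the liver lists, so the ranks were also read with equal lengths. With the top 24333 peaks per list, the median difference over all genes called in all libraries moved from 3.04 to -16.4 percentage points. F2 then differed by 65.4 points and F10 by 68.1, which is 81.8 and 84.5 points above that median. At Fgg and Proc the differences became -30.5 and -29.4 points, both below that median by less than 15 points.

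Widths gave a related picture. The promoter peaks of Fga, Fgg, F2 and Proc were wider in each yolk sac library than in the wider of the liver peaks, 66.7% of the 6 against 34.5% of the 11805 genes. Plg was narrower, at 0.103 of its liver width, against 20.9% of genes with narrower peaks. The median ratio of yolk sac to liver width was 1.92 for the 6 genes and 1.04 for all genes. The Proc value for yolk sac replicate 2 is that of the internal peak, the highest-scoring there. At Fgg in liver replicate 2 and at Proc in both, liver lists split stretches that the yolk sac libraries called as 1 peak, and the part of peak joining in the width differences was not tested.

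Over all the loci, each taken as the gene with 20 kb on either side, the liver lists held 20 and 24 peaks and the yolk sac lists 32 and 33. Their means of 22 ± 2.83 and 32.5 ± 0.707 (SD, n = 2; exact permutation p = 0.333) lay apart by a gap larger than that between replicates. The distal peaks among these numbered 6 and 12 in liver and 19 and 19 in yolk sac. Yolk sac counts exceeded liver counts without overlap at Fga, Fgb, Fgg, F2, Proc and Plg, 60% of the 10 genes against 36.2% of all protein-coding genes, although the 3 fibrinogen loci share most of their peaks. F7, where liver lists held 2 and 3 peaks and yolk sac lists 1 each, was the reverse, as were 5.87% of all genes. With equal list lengths the difference in peaks turned to -8.5, and that in distal peaks to -3, so the higher counts in yolk sac did not hold at equal lengths. Shortening removes mainly yolk sac peaks, and the same counts over all genes are not given for this setting.

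Merged over the 4 libraries, the peaks of these loci formed 44 regions. All libraries called 12 of them (27.3%, against 25.7% of the 61095 regions in the genome). Another 12 were called in both yolk sac libraries alone (27.3% against 33%), and 9 of these were distal. The 3 called in both liver libraries alone (6.82% against 6.62%) were the F5 and F7 promoters and the region past the end of F5. These shares were near those of the genome.

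Other genes of clotting and fibrinolysis were read from a list of 34. Of these, the liver libraries called 26 and 28 and the yolk sac libraries 27 and 26, and 20 of the 34 were called in all 4 libraries (58.8%). Liver alone called 5 (14.7%, against 1.01% of protein-coding genes) and yolk sac alone called 2 (5.88%, against 5.25%). At equal list lengths, liver alone called 5 (14.7%, against 3.01%) and yolk sac alone 1 (2.94%, against 2.61%). The liver-only genes were F12 and Klkb1, which encode factor XII and prekallikrein of the contact pathway, Cpb2 and Hrg, whose products slow or modulate fibrinolysis, and Vwf, which encodes von Willebrand factor. F12 ranked at 63.2 and 56.1 and Klkb1 at 21.5 and 10.4 in the liver lists. Cpb2 ranked at 43.1 and 40.4, Hrg at 34.1 and 22.2, and Vwf at 59.0 and 55.0.

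Vwf is a gene of endothelium and megakaryocytes rather than of hepatocytes. Megakaryocyte and platelet markers were called at 5 and 4 of 8 genes in liver and at 2 and 2 in yolk sac, with Gp9, Gp6 and Ppbp at no call in any library. Endothelial markers were called at 4 and 5 of 6 in liver and at 6 each in yolk sac. The part of these cells in the call at Vwf was not tested.

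The yolk-sac-only genes of the list were F13b, the carrier subunit of the fibrin cross-linking factor XIII (48.4 and 35.4), and Serpina5, the protein C inhibitor (71.0 and 72.7). Of the 20 genes called in all libraries, 7 ranked higher in both yolk sac libraries (35%, against 34.4% of all genes) and 3 in both liver libraries (15%, against 22.1%), shares near the background. The 5 genes for maturation and secretion of clotting factors, Ggcx, Vkorc1, Lman1, Mcfd2 and Furin, were called in all 4 libraries, as were the initiation genes F3 (tissue factor) and Tfpi (its inhibitor).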

How the data were processed

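PRO-seq of mouse liver and yolk sac at embryonic day 14.5 was analysed from the peak list of each of the 4 libraries. Each list gives chromosome, start, end and a score deposited by the authors, with no unit and a lowest value of 0.80 in each list. The lists were made per library, and dREG is named in the file names. Reference build mm10 and the tools Bowtie2 and bedtools are named in the submitters' processing notes. The version and settings of dREG are not given in the sources used here. Read depth is unknown, so no counting error is given, and precision rests on 2 libraries per tissue. The labels do not say whether the pools came from separate litters, so p-values measure only the spread between these libraries.

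Values were computed in Python 3.11.15 with scipy 1.17.1, pandas 2.3.3 and numpy 2.4.6. Peaks were matched to 132758 gene and start pairs of GENCODE vM21 (GRCm38), with overlap of a window of 500 bp either side. Where a gene had several promoter peaks, the highest-scoring was used for rank and width. Peaks were placed in loci (gene with 20 kb either side) by their midpoint, and merged into regions when they overlapped by at least 1 bp. Positions are 1-based. Tests were exact, two-sided and by permutation, with 6 ways to label the 4 libraries. Calling and merging were tested on simulated lists. Named were all 10 genes, the genes of the wider list called in 1 tissue only, neighbours whose start window a peak of the loci touched, and tissue-only regions. Other genes, regions and neighbouring genes were named after their values were seen. The genes and lists were chosen with earlier results of these data known. The markers Tf and Ahsp had no entry of that name in the annotation. Promoter sequences are from RefSeq, and Plg and Proc were not matched to that table. Alternatives were other windows, flanks, start sets, peak choices, merging distances and percentiles among promoter peaks, the higher-scoring 50% of each list, equal list lengths, a replicate block and the leaving out of each library.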

Additional observations from a re-analysis of the deposited data

How the results depend on the processing

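Read depth is unknown and list lengths differ, so a missing peak cannot be told from one below the limit of a shorter or shallower list. With equal list lengths, yolk sac minus liver was -4 for the number of the 10 genes called (-0.5 with all peaks), -3.5 for the wider list of clotting genes (-0.5), -8.5 for peaks in the loci (10.5) and -3 for distal peaks (10). Liver-only regions then numbered 6 in place of 3, yolk-sac-only regions 3 in place of 12, and the difference in the share of libraries calling Serpinc1 was -0.5 in place of 0.5. Over all protein-coding genes, promoter calls in liver alone likewise rose from 1.01% to 3.01%. Those in yolk sac alone fell from 5.25% to 2.61%. The shift toward liver was thus not particular to these genes, and shares of regions over the genome are not given for this setting. With the higher-scoring 50% per list, differences were 1 for genes called, 7 for the wider list and 5 for distal peaks. The median percentile difference, 16.5 with all peaks, was then -9.66 and rested on Proc, the only one of the 10 genes still called in all libraries. These settings keep fewer peaks by construction, and beyond that the cause was not tested. Leaving out 1 library gave differences from -1 (without liver replicate 2) to 0 (without liver replicate 1) for genes called, and from 7 (without liver replicate 1) to 13 (without liver replicate 2) for distal peaks. Liver-only regions then ranged from 3 to 7, with 7 without liver replicate 1, where a call needed only 1 liver library. The median percentile difference ranged from 7.69 without liver replicate 2 to 27.1 without liver replicate 1. Of the alternatives for these results 64 values kept within the replicate spread, or within 1.5 times a count, and 13 moved further. The 2 counted as reversed were the peaks and the distal peaks in the loci at equal list lengths. Among values that moved further, genes called, the wider list and the median percentile difference also changed sign with the higher-scoring 50%.

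With the replicate number as a block, the differences were the same by construction, at -0.5 genes called and 10.5 peaks in the loci, and the smallest possible p rose to 0.5. The deviations of same-numbered libraries correlated at -0.011 over 11805 genes. With 2 libraries per tissue and no litter in the labels, this value cannot show whether same-numbered pools were paired.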

Other observations

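Of the 20 genes of the wider clotting list called in all libraries, 35% ranked higher in yolk sac without overlap, a share near the 34.4% of all genes, and some of their values follow. Procr, the endothelial receptor of protein C, ranked at 18.2 and 41.9 in liver and at 65.3 and 94.6 in yolk sac. Tfpi ranked at 29.0 and 6.27 in liver and at 72.9 and 52.7 in yolk sac. Adamts13, the protease that trims von Willebrand factor, ranked at 51.8 and 24.7 in liver and at 75.9 and 81.4 in yolk sac. Thbd, the thrombin receptor of endothelium, overlapped, at 48.4 and 52.9 in liver and 65.6 and 49.6 in yolk sac. These genes were named after their values were seen.

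Ggcx, the carboxylase that vitamin K-dependent clotting factors require, ranked at 96.9 and 85.5 in liver and at 76.9 and 79.9 in yolk sac, without overlap. Its rank was thus higher in liver while that of F10, a gene of one of its substrates, was higher in yolk sac. F10 does not stand for the other listed genes: F2 was also higher in yolk sac, F7 was called in liver alone and Proc overlapped.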
